A study of Mus musculus with 6 samples.

Results

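The 9 genes described here are the transmitter and marker genes of cortical interneurons: Gad1, Gad2, Slc32a1, Pvalb, Sst, Vip, Npy, Cck and Calb2. The genes were chosen with earlier results of these data known, and all their probe sets were taken by gene symbol. They are measured by 14 of the 45101 probe sets on the array and are 9 of its 18193 named genes. Each of the 6 arrays measured RNA of 1 frontal lobe of cortex, taken at 21 days of age from an untreated mouse on a mixed C57BL/6 and 129 background, and there was 1 array per genotype. A cross of double heterozygotes gave wild type (WT), Vldlr knockout, Apoer2 knockout and double Apoer2 and Vldlr knockout animals, while Dab1 and Reln knockouts were each bred in a separate cross. The Dab1, Reln and double knockouts are the reeler models of the series title, and the other 3 (WT and both single receptor knockouts) serve as comparison arrays. For these mutants, the alleles were not given in the sources used here.

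Inhibitory interneurons of the cortex make the transmitter GABA from glutamate and load it into vesicles, and most of them fall into classes known by the calcium-binding protein or peptide they contain. Reelin is secreted in the postnatal cortex largely by interneurons themselves, and its receptors Vldlr and Apoer2 signal through the adaptor Dab1 to place migrating neurons. In the reeler cortex interneurons are known to take up abnormal positions. Arrays of whole tissue measure the amount of RNA and not the place of cells, and in such samples fewer cells of a type and less RNA per cell cannot be told apart.

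Some facts of the arrays bear on all values below. Median signals were 86.5 to 92.3, and the background, taken as the highest of 27 probe sets for bacterial transcripts, was 28.4 to 39.6. The knockout of Reln (79.9 on its own array, 1498 to 1880 elsewhere) and of Apoer2 (gene symbol Lrp8, 4.2 and 13.7 on the arrays that lack it, 342.4 to 379.8 elsewhere) was plain, Vldlr read 187.3 and 185.6 where it was knocked out and 357.6 to 551.6 elsewhere, and Dab1 read 478.5 on its knockout array against 516.4 to 626.0. The Apoer2 knockout array stood apart: Xist, the RNA of the inactive X chromosome, read 124.9 there and 3368 to 4006 on the other 5, and the Y-linked Eif2s3y read 367.5 there and at most 7.7 on the others, although the labels call every animal male. Growth hormone (Gh) read 3705 on that array against 13.1 to 32.4. Markers of cortical excitatory neurons such as Slc17a7 (2825 to 4730) were well above background, but those of cerebellar Purkinje cells (Pcp2, 1829 to 2817) and of the hypothalamus (Pmch, 632.4 to 739.7) were above background on all 6 arrays too. In the tests the 3 genotypes of a class stand in for replicates. The spread behind a p-value thus mixes differences between animals with those between genotypes and, for the reeler models, between crosses. In limma this spread is also moderated by that of other genes.

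Gad2, Sst and Npy read higher on every reeler array than on every comparison array, and Pvalb and Calb2 read lower on every reeler array. The classes overlapped for Gad1, Slc32a1, Vip and Cck. In limma, across 11498 genes with a mean signal of at least 89.0, 0 of the 9 passed an adjusted p of 0.05, against 0.130% of all genes. Of all genes 0.0174% passed higher and 0.113% lower. At an unadjusted p under 0.05 in limma, 4 of the 9 lay higher and 2 lower, against 5.23% and 5.81% of all genes. The classes did not overlap for 5 of the 9 genes, against 17.7% of all genes, and the median log2 difference of the 9 was 0.17, against 0.01 over all genes. These log2 differences are reeler models minus comparison arrays on the scale log2(signal + 28.1).

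**Figure D1:**
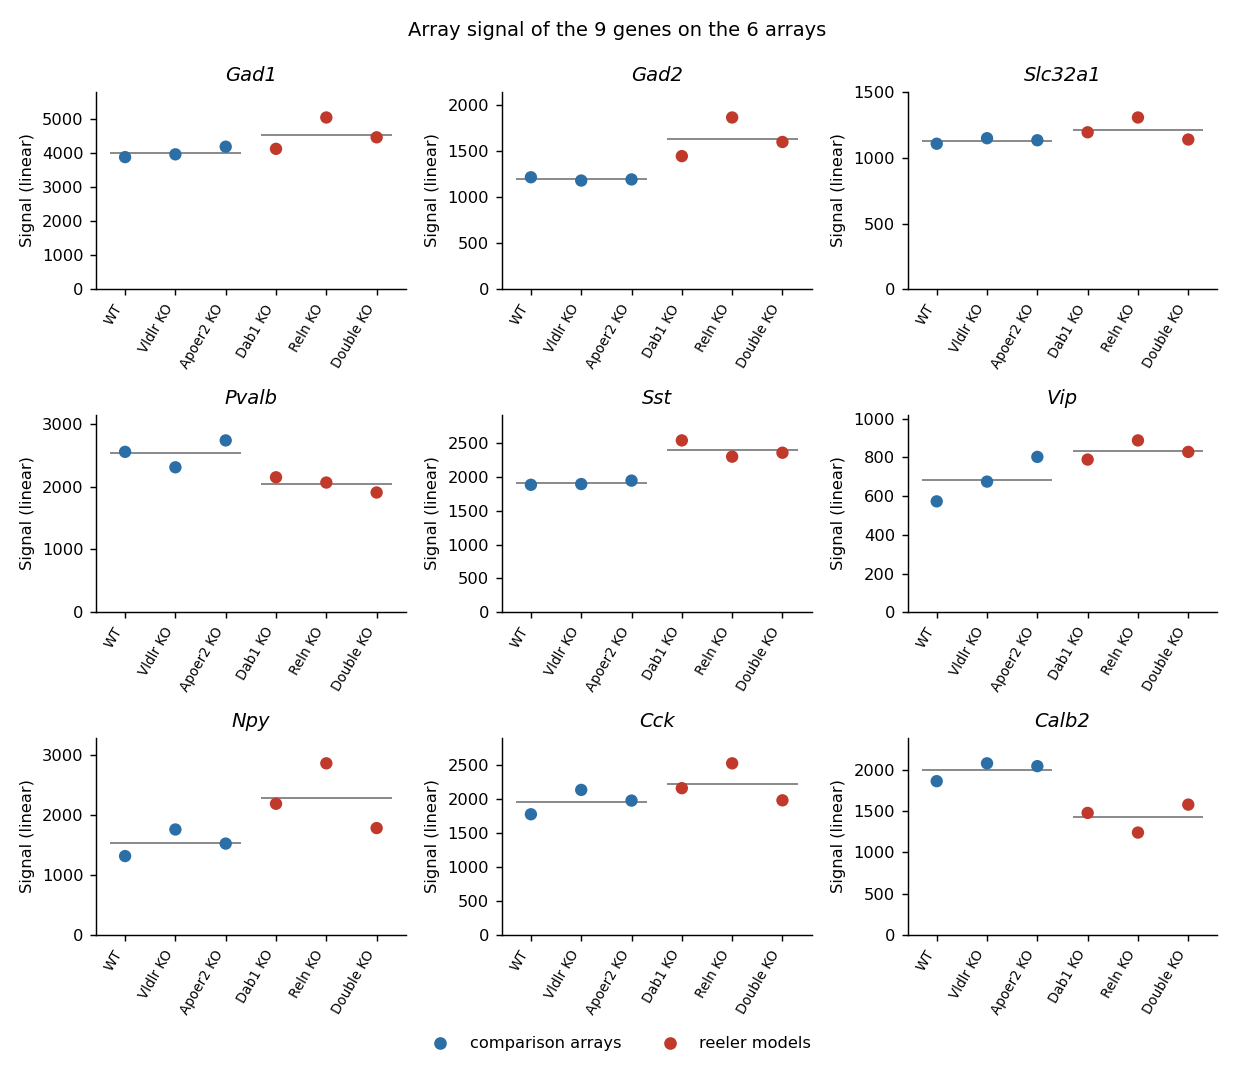
Signal on a linear scale (y axis, from 0) of each of the 9 genes on each of the 6 arrays (x axis), with comparison arrays in blue, reeler models in red and grey lines at the class means (n = 3 arrays each). Gad2, Sst and Npy lie higher and Pvalb and Calb2 lower on all 3 red arrays, by a margin that is narrow for Npy.

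Promoters of 3 peptide genes and of Pvalb are printed to show which carry a cAMP response element, the site of the activity-regulated factor CREB, whose full form is TGACGTCA and whose first 6 bases are TGACGT. The stretches are the 120 bases before the gene start, 5′ to 3′ on the gene's strand, from RefSeq on GRCm38.p6, with the element in capitals. They lie at chr16:23890845-23890964 (minus strand, Sst), chr10:5639098-5639217 (plus strand, Vip), chr6:49822590-49822709 (plus strand, Npy) and chr15:78206401-78206520 (minus strand, the first of the listed starts of Pvalb).
Sst: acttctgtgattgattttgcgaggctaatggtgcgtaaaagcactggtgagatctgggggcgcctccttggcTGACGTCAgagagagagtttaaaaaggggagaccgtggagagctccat
Vip: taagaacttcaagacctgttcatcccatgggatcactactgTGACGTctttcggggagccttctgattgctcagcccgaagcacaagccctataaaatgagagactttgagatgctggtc
Npy: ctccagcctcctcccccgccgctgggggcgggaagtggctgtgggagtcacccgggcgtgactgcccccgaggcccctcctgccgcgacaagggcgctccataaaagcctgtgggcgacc
Pvalb: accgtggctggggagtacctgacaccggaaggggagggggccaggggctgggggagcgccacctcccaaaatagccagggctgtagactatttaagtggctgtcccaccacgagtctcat
Sst holds the full element, 48 to 41 bases before its start, and Vip holds the first 6 bases of it, 79 to 74 bases before its start. On either strand of the 250 bases before the start, the full element is found in 1.55% of 32851 RefSeq promoters and the 6 bases, which every full element also holds, in 6.47%. Neither was found in these windows of Npy, Cck, Gad1, Gad2, Slc32a1 or either listed start of Pvalb. A match of letters is a description and not a site in use.

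Gad1 and Gad2 encode the enzymes that make GABA, GAD67 in the cell body and GAD65 at the terminals. Gad2 (probe set 1429589_at) read 1219, 1183 and 1195 on the WT, Vldlr knockout and Apoer2 knockout arrays. In the Dab1, Reln and double knockouts it read 1449, 1869 and 1603. The comparison arrays were within 0.04 of each other on the log2 scale, and the lowest reeler array lay 0.24 above the highest of them. The log2 difference was 0.43 (SE 0.10, 95% interval 0.21 to 0.66, 1.35-fold), with an adjusted p = 0.224 in limma. The second Gad2 probe set, 1421978_at, had overlapping classes, with 553.2, 485.9 and 473.9 on the comparison arrays and 526.8, 773.3 and 506.5 in the Dab1, Reln and double knockouts. There the Reln knockout array alone stood above the rest, and the log2 difference was 0.22 (SE 0.16, adjusted p = 0.623 in limma over all probe sets, where 0.120% of probe sets passed).

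Gad1 (1416561_at) read 3881, 3962 and 4186 on the WT, Vldlr and Apoer2 knockout arrays and 4123, 5043 and 4461 in the Dab1, Reln and double knockouts. The Dab1 knockout array lay below the Apoer2 knockout array, so the classes overlapped. The log2 difference came to 0.17 (SE 0.08, 95% interval -0.02 to 0.37, adjusted p = 0.479 in limma), and it was 0.10 without the Reln knockout array and 0.06 after quantile normalization. The second Gad1 probe set, 1416562_at, had a log2 difference of 0.15 (SE 0.11) and read 2916 on the Reln knockout array against 2113 to 2419 on the other 5. Both probe sets of both Gad genes were thus highest on the Reln knockout array.

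Slc32a1 encodes VGAT, the carrier that loads GABA and glycine into vesicles. Its bright probe set, 1422756_at, read 1108, 1150 and 1135 on the WT, Vldlr and Apoer2 knockout arrays and 1195, 1308 and 1140 in the Dab1, Reln and double knockouts. It spanned a 1.18-fold range over the 6 arrays, the narrowest of the 9 genes, and its classes overlapped. The log2 difference was 0.10 (SE 0.08, 95% interval -0.09 to 0.29, adjusted p = 0.671 in limma), and 0.04 without the Reln knockout array. The other 3 Slc32a1 probe sets read 2.5 to 10.0, below the background of the bacterial controls, and give no usable level. The other 11 probe sets of the 9 genes passed the signal filter. Markers of striatal projection neurons past the filter, 6 genes, had a median log2 difference of -0.04, with 3 above 0 and 3 below. They ran from Pde10a (-0.27) to Ppp1r1b (0.46). The part of neurons of other brain regions in the Gad1, Gad2 and Slc32a1 values was not tested.

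The genes that mark interneuron classes did not all lie on the same side. Pvalb encodes parvalbumin, the calcium buffer of fast-spiking basket and chandelier cells, which Purkinje cells and interneurons of the cerebellum also contain. It read 2552, 2306 and 2734 on the WT, Vldlr and Apoer2 knockout arrays and 2147, 2064 and 1905 in the Dab1, Reln and double knockouts. All reeler arrays were below all comparison arrays, with 0.10 on the log2 scale between the nearest of them. Reeler models minus comparison arrays gave a log2 difference of -0.31 (SE 0.09, 95% interval -0.50 to -0.11, 1.24-fold lower), with an adjusted p = 0.301 in limma. Without the Apoer2 knockout array, which read highest, it was -0.25.

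Sst encodes somatostatin, the peptide of Martinotti and other dendrite-targeting interneurons. It read 1880, 1891 and 1942 on the WT, Vldlr and Apoer2 knockout arrays and 2535, 2295 and 2353 in the Dab1, Reln and double knockouts. Both classes were tight, with ranges of 0.05 and 0.14 on the log2 scale and a gap of 0.24 between them. The log2 difference was 0.32 (SE 0.07, 95% interval 0.16 to 0.49, 1.25-fold), with an adjusted p = 0.210 in limma. Sst was the only member whose Dab1 knockout array was the highest of the 6. Vip encodes vasoactive intestinal peptide, of interneurons that contact other interneurons. It read 573.2, 675.2 and 802.8 on the WT, Vldlr and Apoer2 knockout arrays and 789.0, 888.0 and 828.6 in the Dab1, Reln and double knockouts. The Apoer2 knockout array overlapped the reeler models, and the comparison arrays spanned 0.47 on the log2 scale. Its log2 difference was 0.29 (SE 0.12, 95% interval 0.01 to 0.57, adjusted p = 0.447 in limma). It was 0.41 without the Apoer2 and 0.17 without the WT array.

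Npy and Cck are peptides made by several neuron types. Npy, neuropeptide Y, belongs to neurogliaform and some somatostatin interneurons and also to hypothalamic neurons. It read 1320, 1763 and 1528 on the WT, Vldlr and Apoer2 knockout arrays and 2192, 2866 and 1787 in the Dab1, Reln and double knockouts. The double knockout array lay only 0.02 on the log2 scale above the Vldlr knockout array, and the classes overlapped after quantile normalization. The log2 difference was 0.54 (SE 0.17, 95% interval 0.16 to 0.93, 1.46-fold), with an adjusted p = 0.339 in limma. Npy had the highest difference of the 9 genes and the widest spread, 2.17-fold over the 6 arrays, and without the Reln knockout array the difference was 0.37. The 5 hypothalamic markers past the filter had a median log2 difference of 0.05. Summed over all 7 measured markers of that list, signal was 1923 to 2765 on reeler arrays and 1978 to 2481 on comparison arrays. Agrp was listed but was not among the measured genes. The sum was highest on the Reln knockout array, as were Oxt (1104), Avp (557.9) and Hcrt (236.1). Pmch (739.7) was highest on the double and Pomc (341.3) on the Apoer2 knockout array. The part of hypothalamic neurons in the Npy values was not tested.

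Cck, cholecystokinin, marks a basket cell class and is also made by many excitatory neurons. It read 1779, 2137 and 1980 on the WT, Vldlr and Apoer2 knockout arrays and 2162, 2528 and 1984 in the Dab1, Reln and double knockouts. The classes overlapped, with the Vldlr knockout array above the double knockout array. Between the classes the log2 difference was 0.17 (SE 0.11, 95% interval -0.07 to 0.42, adjusted p = 0.569 in limma). It was 0.08 without the Reln knockout and 0.10 without the WT array.

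Calb2 encodes calretinin, a calcium-binding protein of a class of interneurons that overlaps with Vip cells, and also of cerebellar granule cells. It read 1861, 2077 and 2043 on the WT, Vldlr and Apoer2 knockout arrays and 1478, 1241 and 1578 in the Dab1, Reln and double knockouts. All reeler arrays were lower, with 0.23 on the log2 scale between the classes. The log2 difference was -0.47 (SE 0.10, 95% interval -0.71 to -0.24, 1.39-fold lower), with an adjusted p = 0.189 in limma, the lowest of the 9.

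**Figure D2:**
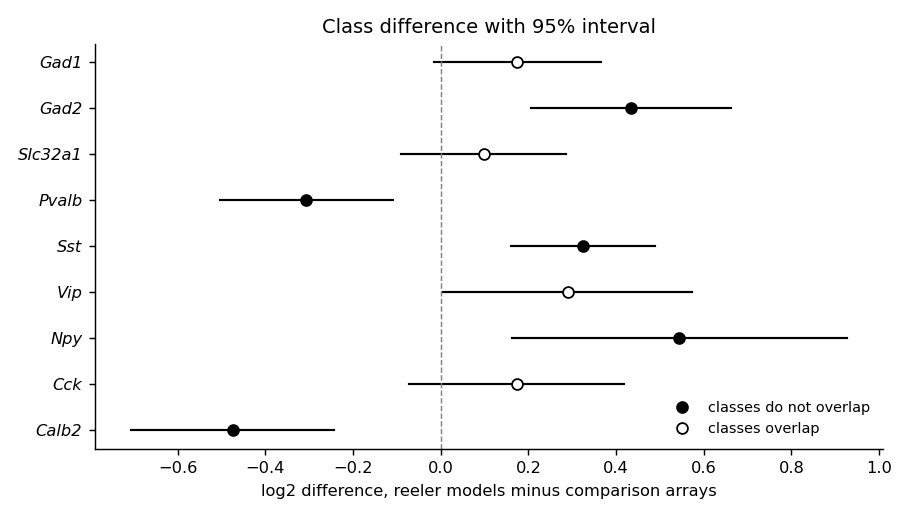
Log2 difference between reeler models and comparison arrays (x axis) for each of the 9 genes (y axis), with the 95% interval from limma, which is not adjusted for the number of genes. Filled points mark the 5 genes whose classes do not overlap, and the differences run from -0.47 for Calb2 to 0.54 for Npy.

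Genes of cerebellar granule cells moved with Calb2 and Pvalb. All 10 granule cell markers past the filter were lower on every reeler array than on every comparison array, against 8.67% of all genes, and 7 of them passed as lower in limma, against 0.113% of all genes, among them Gabra6 (log2 difference -3.07, adjusted p = 0.00572 in limma). Signal summed over the 11 measured markers of that list was 3907 to 5295 on reeler arrays and 12211 to 15322 on comparison arrays. Within the classes the orders of Calb2 and of these markers differed: the Vldlr knockout array had the lowest granule sum of the comparison arrays and the highest Calb2, and the double knockout array had the lowest granule sum of all and the highest Calb2 of the reeler models. For Pvalb the order of the 6 arrays was that of the granule sum except that the WT and Apoer2 knockout arrays changed places. Markers of Purkinje cells, which contain parvalbumin, summed to 12668 to 15973 on reeler and 15018 to 15891 on comparison arrays, with a median log2 difference of -0.16 over 6 genes, all of them below 0 and none past the threshold in limma. Of these, Car8 (-0.43) and Rgs8 (-0.24) were lower on every reeler array. The 4 kept markers of cerebellar or hindbrain inhibitory neurons had a median of -0.18 and did not all lie on the same side. Tfap2b, a transcription factor of that lineage, was at -0.41 (adjusted p = 0.387 in limma), Kit at -0.24 and Tfap2a at -0.12. Slc6a5 was at 0.23, with signals of 61.9 to 305.1 over the arrays. The part of these cells in the Calb2 and Pvalb values was not tested.

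**Figure D3:**
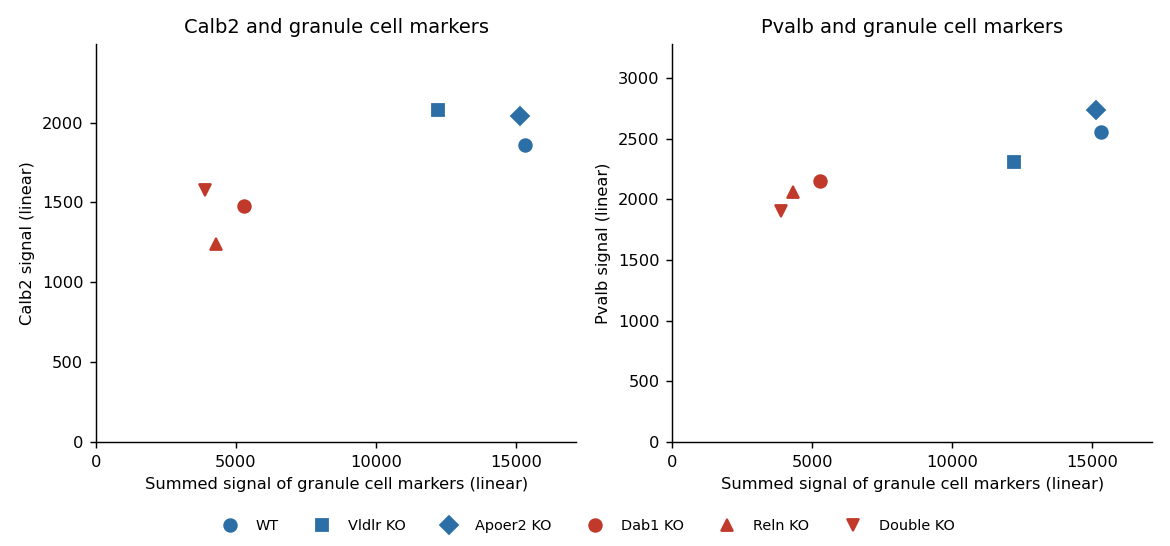
Signal of Calb2 (left) and Pvalb (right) on each array (y axis) against the summed signal of 11 granule cell markers (x axis), both linear and from 0. Blue symbols are the comparison arrays at 12211 to 15322 on the x axis, and red symbols are the reeler models at 3907 to 5295.

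Each mutant array was next set against the WT array. There is no test here, and all 5 differences of a gene share the same WT value. Signal summed over markers of cerebellar or hindbrain inhibitory neurons was highest on the WT array, 1391 against 919.0 to 1235 elsewhere. Markers of Purkinje cells summed to 15018 on the WT array and 12668 to 15973 elsewhere. The part of such cells in the differences from WT was not tested. The values are those of the 1 probe set used per gene. Of the 9 genes, 7 lay above WT on all 3 reeler arrays and Pvalb and Calb2 below it on all 3, where 28.7% of all genes lay above, 27.5% below and 56.2% either way. The WT array was the lowest of the 6 for 6 of the 9 genes (19.7% of all genes), namely Gad1, Slc32a1, Sst, Vip, Npy and Cck. The second probe sets of Gad1 and Gad2 did not lie above WT on all 3 reeler arrays: the Dab1 knockout array was below WT on both, as was the double knockout array on that of Gad2, and the Vldlr knockout array was the lowest on that of Gad1. On both single knockout arrays 7 of the 9 lay above WT too (35.0% of all genes).

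The Reln knockout array was highest for 6 of the 9 (22.1% of all genes) and lowest for Calb2 (25.2% of all genes). Npy was the only member at least 2-fold from WT on any array, with a log2 difference of 1.10 on the Reln knockout array, where 1.16% of all genes were at least 2-fold higher and 1.33% lower. The shares at least 2-fold higher and lower were 0.244% and 0.478% on the Vldlr, 0.200% and 0.191% on the Apoer2, 0.287% and 0.748% on the Dab1 and 0.339% and 0.591% on the double knockout array. On the Reln knockout array Gad2 (0.60), Vip (0.61), Cck (0.50), Gad1 (0.38), Sst (0.28) and Slc32a1 (0.23) were above WT, and Calb2 (-0.57) and Pvalb (-0.30) below. The Dab1 knockout array was closer to WT for most of them, with Npy at 0.72, Vip at 0.44, Sst at 0.43, Cck at 0.28, Gad2 at 0.24 and Gad1 at 0.09. Its Calb2 difference was -0.33 and its Pvalb difference -0.25. On the double knockout array Vip was at 0.51, Npy at 0.43, Gad2 at 0.39, Sst at 0.32 and Pvalb at -0.42, the lowest Pvalb value of the 6 arrays.

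Among the single receptor knockouts, Gad2 (-0.04 and -0.03 for Vldlr and Apoer2) and Sst (0.01 and 0.05) lay close to WT. Npy (0.41 and 0.21), Vip (0.23 and 0.47), Cck (0.26 and 0.15) and Calb2 (0.16 and 0.13) lay above it. The double knockout array departed from the sum of the single differences by 0.46 for Gad2, 0.27 for Sst, -0.37 for Pvalb, -0.52 for Calb2, -0.26 for Cck, -0.19 for Npy, -0.18 for Vip, -0.05 for Slc32a1 and 0.06 for Gad1, with 1 array behind each term.

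**Figure D4:**
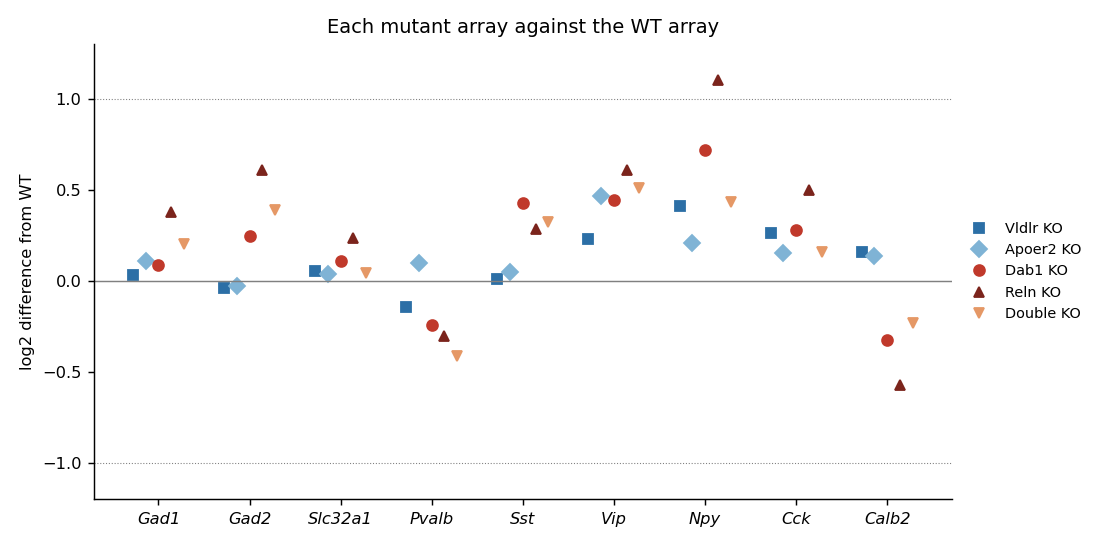
Log2 difference of each of the 5 mutant arrays from the WT array (y axis) for the 9 genes (x axis), with blue symbols for single receptor knockouts, red, brown and orange for reeler models, and dotted lines at 2-fold. Npy on the Reln knockout array, at 1.10, is the only point past the dotted lines.

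The 9 genes also differed in how they ran across the 6 arrays. Pearson's r of log2 signal, a description over 6 arrays that share the class split and the high Reln knockout array, was 0.96 for Slc32a1 and Npy, 0.96 for Npy and Cck, 0.95 for Slc32a1 and Cck and 0.91 for Gad1 and Gad2. Gad2 and Calb2 ran in opposite ways (r = -0.95), and Pvalb and Calb2 in the same way (0.72). Over the 36 pairs the median r was 0.67 and 22 were above 0. An r over 0.9 was found for 4 of the 36 pairs, and 2.25% of all genes had one with Slc32a1. The genes most like Gad1 were Ap1s1, Ipo9 and Trnp1 (r = 0.995, 0.993 and 0.993). For Slc32a1 they were Cep170b, Adcyap1 and Adgrg1, for Pvalb they were Zfhx2os, St18 and Slirp, and for Npy they were Fam216a, Sdhb and Coro6.

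Related genes were then taken by function, in 7 lists, to see whether the rest of the interneuron program lay with the 9 genes. Of 88 genes past the signal filter, 0 passed an adjusted p of 0.05 in limma, against 0.130% of all genes. At an unadjusted level of 0.05, 11 lay higher and 3 lower (5.23% and 5.81% of all genes), and the classes did not overlap for 9 higher and 4 lower genes (9.04% and 8.67% of all genes). Their median log2 difference was 0.06.

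Genes for taking up, recycling and breaking down GABA showed no common direction. Of 11 past the filter, 6 lay above 0 and 5 below, with a median log2 difference of 0.02. The lowest were Slc38a3 (-0.32) and Slc6a13 (-0.29), a glutamine carrier and a GABA carrier. At the top were Slc6a11 (0.28), the GABA transporter GAT3 of astrocytes, and Aldh5a1 (0.07), an enzyme of GABA breakdown. Slc38a1, which carries glutamine into inhibitory neurons, was at -0.29 and, like Slc38a3, lower on every reeler array. Slc12a5, the chloride pump KCC2 that makes GABA inhibitory, was at 0.06. Of the inhibitory postsynapse, 7 genes past the filter had a median of 0.06, between Dmd (-0.21) and Nrxn3 (-0.04) at the bottom and Lhfpl4 (0.09) and Iqsec3 (0.31) at the top, while the scaffold gene Gphn was at 0.06.

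Transcription factors and other genes of interneuron development were dim, and only 11 of 24 listed passed the filter. They had a median of -0.05, and none of the 11 had classes that did not overlap, against 17.7% of all genes. They ran from Nr2f1 (-0.29) and Maf (-0.17) to Dlx1 (0.10) and Lhx6 (0.26), a factor of Pvalb and Sst cells. Lhx6 read 133.4, 181.7 and 172.1 on the WT, Vldlr and Apoer2 knockout arrays and 211.8, 209.5 and 175.3 in the Dab1, Reln and double knockouts. Only its Vldlr knockout array stood above a reeler array.

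Markers of other interneuron classes lay on both sides of 0. Of 21 past the filter, 11 lay above 0 and 10 below, and the 3 whose classes did not overlap were all higher (9.04% of all genes were higher without overlap). Highest were Cort (log2 difference 0.51, SE 0.27, adjusted p = 0.511 in limma), a peptide close to somatostatin, and Crhbp (0.50, SE 0.16, adjusted p = 0.353 in limma). Crhbp is a binding protein found in many Sst cells. Cort had overlapping classes and read 105.9, 227.6 and 201.6 on the WT, Vldlr and Apoer2 knockout arrays. In the Dab1, Reln and double knockouts Cort read 350.1, 195.6 and 243.2. Crhbp read 162.4, 176.5 and 184.2 on the WT, Vldlr and Apoer2 knockout arrays and 290.5, 299.1 and 196.1 in the Dab1, Reln and double knockouts, so the double knockout array lay just above the comparison arrays. Lowest were Lamp5 (-0.29) and Ndnf (-0.25), markers of neurogliaform cells. Lamp5 read 800.2 on the Reln knockout array and 1453 to 1677 on the other 5, so its value rests on that array.

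Fast-spiking channels and perineuronal net genes were split. Of 17 past the filter, 10 lay above 0 and 7 below. Kcnc1, the Kv3.1 potassium channel of fast-spiking interneurons and also of cerebellar granule cells, read 1123, 801.0 and 959.5 on the WT, Vldlr and Apoer2 knockout arrays and 384.8, 527.1 and 480.1 in the Dab1, Reln and double knockouts. Every reeler array was lower, and the log2 difference was -1.01 (SE 0.15, adjusted p = 0.0604 in limma), the closest to the threshold of all 88 genes. The granule cell markers were lower on the same arrays, and their part in Kcnc1 was not tested. Its relative Kcnc2 was at 0.10. Scn4b (-0.25) was next lowest, and the proteoglycans Vcan (0.35) and Ncan (0.33) were highest.

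Receptors of the peptides had a median of 0.05 over 9 genes, from Cckbr (-0.18) and Npy2r (-0.17) to Adcyap1r1 (0.34) and Sstr2 (0.40). None of the 9 had classes that did not overlap, against 17.7% of all genes. Adcyap1r1 is named as the receptor of Adcyap1 and not of a member peptide, and Vipr1 and Vipr2 did not pass the filter. Sstr2 read 773.2 on the Reln knockout array and 289.3 to 421.0 on the other 5. The genes that process and package peptides lay to 1 side: all 12 past the filter were above 0, as were 5972 of the 11498 genes, with a median of 0.23. Highest were Vgf (0.48, SE 0.15, adjusted p = 0.353 in limma), a granin-like peptide precursor, and Scg5 (0.44, SE 0.13, adjusted p = 0.334 in limma), a chaperone of the convertase that cuts prohormones. Lowest were Tpst1 (0.03) and Cpe (0.06), and 4 of the 12 had classes that did not overlap, all higher, against 9.04% of all genes. Vgf read 1644, 1732 and 1852 on the WT, Vldlr and Apoer2 knockout arrays and 2225, 3187 and 2026 in the Dab1, Reln and double knockouts, and like Npy was highest on the Reln knockout array.

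**Figure D5:**
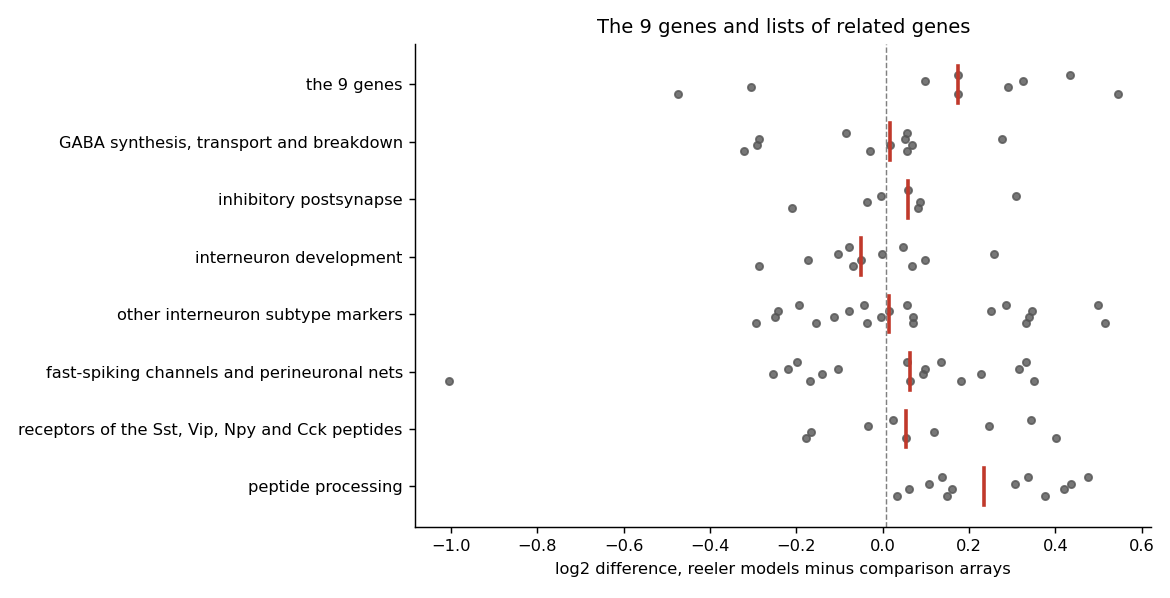
Log2 difference between reeler models and comparison arrays (x axis) for the 9 genes and for genes past the signal filter in 7 lists (y axis), with a point per gene, red bars at list medians and a dashed line at the median of all genes (0.01). Points are offset vertically only for visibility. The peptide processing genes all lie above 0, and Kcnc1 at -1.01 is the lowest point.

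The counts depended on single arrays in part. Without the Apoer2 knockout array the classes did not overlap for 7 of the 9 genes (25.7% of all genes), Gad1 and Vip joining the 5. With cross of origin added as a covariate, where the difference rests on the double knockout array against the 3 comparison arrays, Npy was at 0.22, Cck at 0.02 and Slc32a1 at 0.01.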

How the data were processed

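RNA was isolated with RNA-Stat60 and labelled by the 3' IVT PLUS method (source: the labels' protocols). The authors deposited 1 linear signal intensity per probe set and array; the submitters' processing notes name Affymetrix Expression Console and MAS5, without versions. The 2% trimmed mean was 249.4 to 249.5 on every array. Such scaling makes each value relative to the rest of the array, and RNA from other brain regions in a sample can move it.

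Gene names of probe sets are those of the platform annotation (34958 with 1 gene symbol, 932 with several, 9211 with none), and gene IDs matched RefSeq's GRCm38.p6 table for 34754 of them. Promoters were found there for 8 of the 9 genes. For a gene with several probe sets the one of highest mean signal was used (_x_at last). Of 18193 genes, 11498 reached a mean signal of 89.0 (the median over all probe sets) and were tested. The scale was log2(signal + 28.1), with the 25th percentile of all values as pseudocount, which understates changes of dim genes. Classes of 3 arrays were compared with limma 3.58.1 in R 4.3.3 (trended prior, Benjamini-Hochberg adjustment over all kept genes), tested on simulated data. The number of arrays limits the precision. The members and lists were chosen with earlier results of these data known. The text names all 9 genes, the 2 highest and 2 lowest of each of 7 lists with any past the threshold, and for 4 members the 3 genes with the highest Pearson r; Slc38a1, Slc12a5, Gphn, Kcnc2 and the marker genes of other cells were added after their values were seen. Alternatives were other pseudocounts, filters, normalization, probe set rules and comparison arrays, no trend, a cross covariate and leaving out each array.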

Additional observations from a re-analysis of the deposited data

Results flagged for a closer look

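Gad2 and Calb2 are singled out because the mutants of the 2 classes lay on opposite sides of WT, which held for 3.84% of all genes (442 of 11498). Gad2 was above WT on all 3 reeler arrays (log2 difference 0.24 to 0.60) and slightly below it on both single receptor knockout arrays (-0.04 and -0.03), and the mean differences were 0.45 apart. This rests on 1 probe set: on the second Gad2 probe set, WT read 553.2 and the Dab1 and double knockout arrays 526.8 and 506.5, below it. Calb2 was below WT on all 3 reeler arrays (-0.57 to -0.23) and above it on both single receptor knockout arrays (0.13 and 0.16), with means that lay -0.52 apart. These differences share the WT array and were not tested.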

How the results depend on the processing

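All 144 log2 differences of the 9 genes under 16 alternatives each kept their direction, and 0 passed an adjusted p of 0.05 in limma. For part of them the direction was fixed in advance. Other filters, no trend and separately fitted probe sets cannot change the log2 difference of a gene. The mean over probe sets can change it only for genes with several. The count of members called stayed at 0 under each of them. Over all features, 15 of 11498 genes were called (0.130%), and with probe sets fitted separately 27 of 22518 probe sets (0.120%). The number of genes called was 9 with the cross covariate and 0 with WT as the only comparison array, and was 1 to 22 when single arrays were left out (1 without WT). The classes did not overlap for 5 members, for 4 after quantile normalization (17.3% of all genes), for 9 with WT as the only comparison array (56.2% of all genes) and for 5 to 7 without single arrays, where the share of all genes was 24.2% to 32.3%; the cross covariate gives no such count. With WT as the only comparison array Vip was at 0.52 and Cck at 0.31. Signals under 28.4 to 39.6 cannot be told from background, which touches 3 Slc32a1 probe sets.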
